A study of Sus scrofa with 12 samples.

Results

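Thrombospondins and CD47 were followed in infarcted pig heart after intrapericardial delivery of stromal cell secretomes. The genes considered were THBS1, THBS2, THBS3, THBS4 and CD47, looked up by symbol in the annotation of the array platform. The annotation named 4 of these 5 genes, on 5 probe sets, among 10912 genes named on the array. THBS2 was not named and is not analysed here. THBS1, THBS3 and CD47 had 1 probe set each. THBS4 had 2, so the one with the higher mean over the 12 arrays stands for the gene and the other is given beside it. THBS1 is a gene that the study singled out on these arrays. Its differences between groups are therefore a description, with no test.

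Female Large White pigs had the left anterior descending coronary artery closed with a balloon and then reopened, and received a treatment into the pericardial sac on the third day after the infarct. The 3 groups held 4 pigs each: AMI/Placebo pigs got the vehicle, a culture medium. AMI/S-endMSCs pigs got the basal secretome, the material released by human menstrual blood-derived mesenchymal stromal cells, and AMI/S-endMSCs* pigs got the secretome made after priming of the cells with IFNγ and TNFα. All 12 pigs carried an infarct, so no group shows uninjured heart, and the donor cells were of another species. The anterior wall of the left ventricle was taken 7 days post-therapy, and RNA of each pig was read on 1 Affymetrix porcine array. In the study's methods the same groups are called S-MenSCs and S-MenSCs*.

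Thrombospondins are secreted matricellular glycoproteins, which regulate cells from the matrix rather than build it. Thrombospondin-1 and thrombospondin-2 form trimers that carry type 1 repeats. These repeats bind CD36 and, in thrombospondin-1, activate latent TGF-β. Thrombospondin-3, thrombospondin-4 and COMP form pentamers without type 1 repeats. CD47 is a widely expressed membrane receptor that binds the C-terminal part of thrombospondin-1, through which nitric oxide signalling is restrained, and it also binds SIRPα on myeloid cells as a signal against phagocytosis. In the infarcted heart thrombospondin-1 is known for its deposition at the border of the scar, and thrombospondin-4 for its rise in overloaded or injured myocardium.

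The deposited values were log2 expression values from 0.17 to 13.22 over 27558 probe sets, and the median of the probe set means was 2.78. The mean of every thrombospondin and CD47 probe set lay above that median. Of 22 cardiomyocyte markers listed, 16 were named, and all 16 had means above the median. So did all 16 named fibroblast and scar matrix markers, and 5834 of the 10912 named genes. The cardiomyocyte markers were not level between groups. Their mean log2 difference from each gene's own mean ranged from -1.35 to 0.58 in AMI/Placebo, from -1.73 to 0.06 in AMI/S-endMSCs and from -1.17 to 1.87 in AMI/S-endMSCs*, and 12 of the 16 were up-regulated in AMI/S-endMSCs* against AMI/S-endMSCs. The array of AMI/S-endMSCs replicate 1 stood apart, with the lowest mean correlation with the other arrays (0.821 against 0.875 to 0.911) and the lowest interquartile range of its values (1.66 against 1.80 to 2.51). After Benjamini-Hochberg adjustment over all probe sets limma called no probe set in any comparison. A call here is an unadjusted limma p under 0.05, which 1420 (5.15%), 925 (3.36%) and 2020 (7.33%) of the 27558 probe sets met in the basal-placebo, primed-placebo and primed-basal comparisons. In whole tissue, fewer cells of a type and less RNA per cell cannot be told apart.

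**Figure D1:**
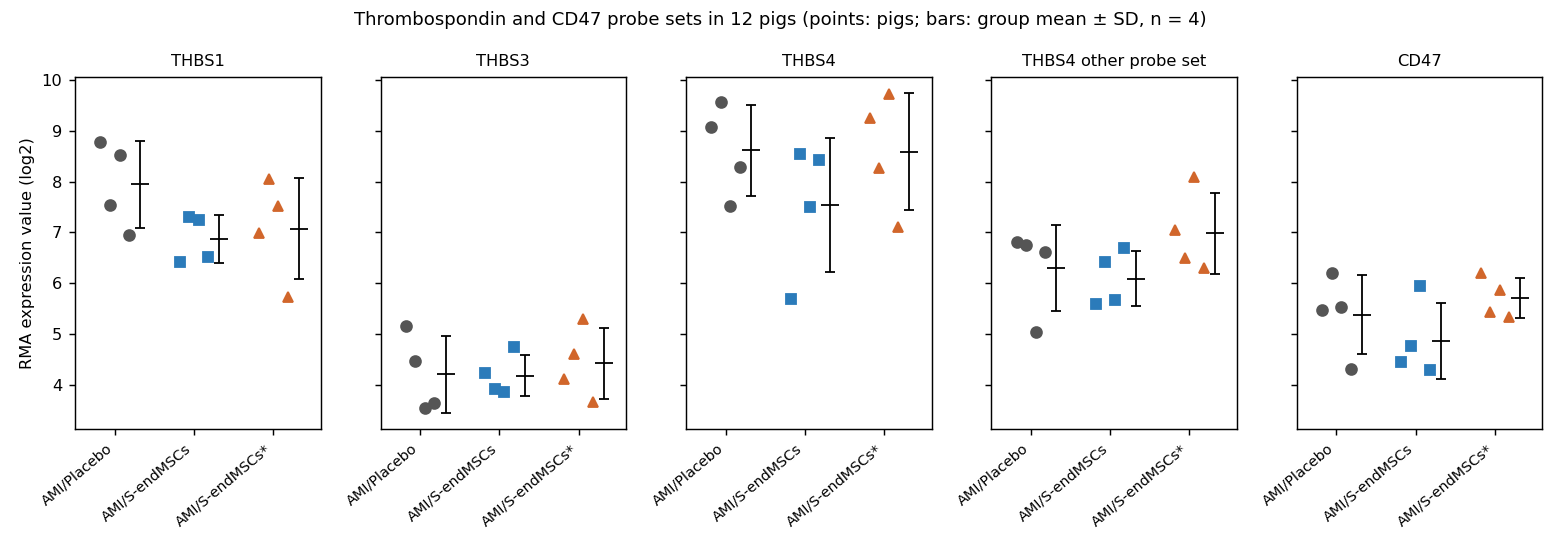
Expression values (log2) of the THBS1, THBS3, THBS4 and CD47 probe sets in 12 pigs, 1 point per pig, with the group mean ± SD (n = 4) beside the points. The groups overlap in every panel, and the lowest THBS4 value, 5.68, is 1 pig given the basal secretome. Levels are not to be compared between panels, since each probe set has its own brightness.

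THBS1, the trimeric thrombospondin released by platelets, macrophages and activated fibroblasts, had its highest values in the placebo group. The 4 AMI/Placebo pigs, replicates 1 to 4, read 8.78, 7.53, 8.52 and 6.95. The AMI/S-endMSCs pigs read 6.42, 7.30, 7.25 and 6.52, and the AMI/S-endMSCs* pigs read 7.00, 8.04, 7.52 and 5.72. Placebo replicates 1 and 3 were above all 8 treated pigs. Placebo replicate 4 lay within the range of both treated groups, and the lowest value of all belonged to AMI/S-endMSCs* replicate 4.

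The group means of THBS1 were 7.95 ± 0.853 in AMI/Placebo, 6.87 ± 0.467 in AMI/S-endMSCs and 7.07 ± 0.995 in AMI/S-endMSCs* (SD, n = 4 each). The differences on the log2 scale were -1.07 for the basal secretome and -0.88 for the primed one against placebo, and 0.20 between the primed and the basal secretome, each with a fitted standard error of 0.49. Of the 16 pairs of a treated with a placebo pig, the treated pig was higher in 2 for the basal and in 4 for the primed secretome. Both differences from placebo share the same 4 placebo pigs. The groups overlapped in all 3 comparisons. Without AMI/S-endMSCs* replicate 4 the primed-placebo difference was -0.43.

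THBS3, a pentameric thrombospondin of bone and other matrices, had group means within 0.24 of each other on the log2 scale. It read 5.15, 4.47, 3.55 and 3.65 in the AMI/Placebo pigs. In the AMI/S-endMSCs pigs it read 4.22, 3.91, 3.85 and 4.75, and in the AMI/S-endMSCs* pigs 4.11, 4.61, 5.31 and 3.67. Each treated group lay almost wholly inside the range of the placebo pigs, with AMI/S-endMSCs* replicate 3 as the only treated value above it.

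The group means of THBS3 were 4.21 ± 0.754, 4.18 ± 0.411 and 4.42 ± 0.702 (SD, n = 4 each, in the order placebo, basal, primed). The log2 difference was -0.02 for basal against placebo (95% interval -0.89 to 0.85, unadjusted p = 0.959). It was 0.22 for primed against placebo (-0.65 to 1.09, unadjusted p = 0.595) and 0.24 for primed against basal (-0.63 to 1.11, unadjusted p = 0.561). None passed the threshold, and the intervals leave room for a change of nearly 1 log2 unit either way.

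THBS4, the pentameric thrombospondin of tendon, muscle and stressed heart, varied more between pigs than any of the others. It read 9.08, 9.57, 7.52 and 8.29 in AMI/Placebo. It read 5.68, 8.54, 7.49 and 8.42 in AMI/S-endMSCs, and 9.24, 8.26, 9.72 and 7.11 in AMI/S-endMSCs*. The low mean of the basal group came largely from replicate 1, at 5.68, the same pig whose array stood apart.

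The group means of THBS4 were 8.62 ± 0.898, 7.53 ± 1.32 and 8.59 ± 1.15 (SD, n = 4 each). The log2 difference was -1.08 for basal against placebo (95% interval -2.52 to 0.36, unadjusted p = 0.129), and without AMI/S-endMSCs replicate 1 it was -0.47. It was -0.03 for primed against placebo (-1.47 to 1.41, unadjusted p = 0.966) and 1.05 for primed against basal (-0.39 to 2.49, unadjusted p = 0.139). THBS4 passed the threshold in none of the 3 comparisons. Without AMI/S-endMSCs* replicate 4, whose value was the lowest of the primed group, the primed-basal difference was 1.54 (unadjusted p = 0.0365).

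The second THBS4 probe set followed the first over pigs (Pearson r = 0.777, Spearman rho = 0.888 over 12 arrays, and r = 0.814 within groups) without showing the same group means. It read 6.80, 6.74, 5.04 and 6.61 in AMI/Placebo, 5.60, 6.41, 5.68 and 6.69 in AMI/S-endMSCs, and 7.05, 6.49, 8.09 and 6.30 in AMI/S-endMSCs*. The lowest reading was placebo replicate 3 and the highest AMI/S-endMSCs* replicate 3. Its log2 differences were -0.21 for basal against placebo (unadjusted p = 0.657), 0.68 for primed against placebo (unadjusted p = 0.158) and 0.89 for primed against basal (95% interval -0.09 to 1.87, unadjusted p = 0.072). The primed-placebo difference thus had opposite signs on the probe sets of this gene, and on neither did it pass the threshold. Which exons or which strand each of them reads is not given in the sources used here.

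CD47, the receptor, was the gene nearest to a call, in the primed against the basal group. The AMI/Placebo pigs read 5.48, 6.21, 5.54 and 4.31, the AMI/S-endMSCs pigs 4.44, 4.77, 5.94 and 4.29, and the AMI/S-endMSCs* pigs 6.20, 5.43, 5.86 and 5.34. Of the AMI/S-endMSCs pigs, 3 lay below the whole primed group and replicate 3 lay inside it. The primed group was also the tightest.

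The group means of CD47 were 5.38 ± 0.786, 4.86 ± 0.748 and 5.71 ± 0.399 (SD, n = 4 each). The log2 difference between primed and basal was 0.85 (95% interval -0.05 to 1.74), higher in 13 of 16 pig pairs. It had an unadjusted limma p of 0.0623, an adjusted p of 0.697 and an exact two-sided permutation p of 0.114, where 4 against 4 pigs cannot go below 0.0286. Against placebo the differences were -0.53 for basal (-1.42 to 0.37, unadjusted p = 0.23) and 0.32 for primed (-0.58 to 1.22, unadjusted p = 0.454). CD47 crossed the threshold or not with single pigs: without AMI/S-endMSCs replicate 3 the primed-basal difference was 1.21 (unadjusted p = 0.00798) and the basal-placebo difference -0.89 (unadjusted p = 0.0389), and without placebo replicate 4 the basal-placebo difference was -0.88 (unadjusted p = 0.039) and the primed-basal difference stayed at 0.85 (unadjusted p = 0.0332).

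Across the set, 0 of the 3 genes tested were called in the basal-placebo, primed-placebo and primed-basal comparisons, where 4.44%, 3.23% and 7.29% of all 10912 named genes were. By direction, 2.6%, 1.95% and 4.81% of named genes were higher and 1.83%, 1.28% and 2.47% lower. By exact two-sided permutation over the 8 pigs of a comparison, the smallest p of these genes was 0.114, that of CD47 above. No gene of the set, THBS1 included, separated 2 groups without overlap, which 2.73%, 1.99% and 3.54% of named genes did. The median log2 difference over all named genes was 0.0056, 0.0059 and -0.019.

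**Figure D2:**
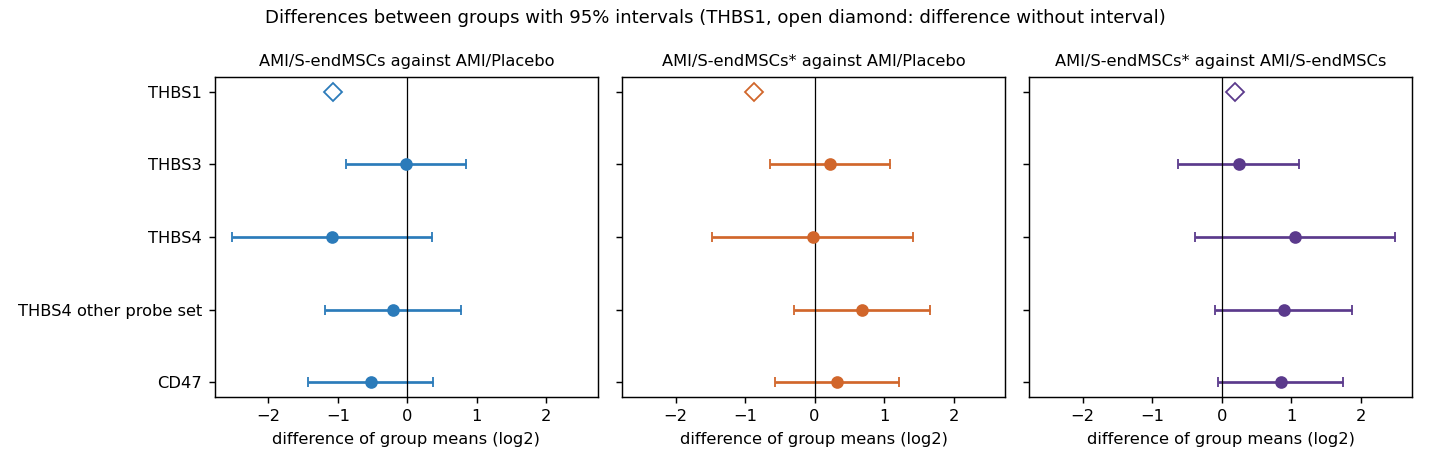
Differences of group means (log2) for each probe set in the 3 comparisons, with 95% intervals from the limma fit. Every interval spans 0, that of CD47 in the primed-basal comparison only from -0.05. THBS1 is drawn as a point without an interval, since it was chosen on these arrays.

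Pigs of the same group differed in these genes more than in most. The within-group SD was 1.14 for THBS4, 0.803 for THBS1, 0.667 for CD47 and 0.640 for THBS3, against a median of 0.466 over 5834 named genes above the median level. That of THBS4 was larger than in 98.4% of those genes, that of THBS1 than in 91.9%, that of CD47 than in 82.9% and that of THBS3 than in 79.8%. From the lowest to the highest pig THBS4 spanned 4.04 log2 units and THBS1 3.06. The spread between pigs of 1 group was thus of the same order as, or larger than, any difference between group means.

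No pair of the 4 genes correlated from pig to pig past the threshold after adjustment over the 6 pairs. The closest pair was THBS3 with THBS4, both pentameric, with Pearson r = 0.527 and Spearman rho = 0.559 over 12 pigs. Its permutation p was 0.0774, adjusted over the 6 pairs 0.355, and r was 0.293 without the 2 pigs farthest from the median THBS3 and 0.549 within groups. THBS1 and its receptor CD47 had r = 0.37 (adjusted permutation p = 0.355). The other pairs had r from 0.155, for THBS3 with CD47, to 0.468, for THBS4 with CD47, and none passed.

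Part of the variation between pigs moved with the spread of the whole array. The interquartile range of all values on an array was 2.23 ± 0.313 in AMI/Placebo, 1.97 ± 0.243 in AMI/S-endMSCs and 2.18 ± 0.289 in AMI/S-endMSCs* (SD, n = 4 each). Over 12 pigs it correlated with THBS1 (r = 0.742, rho = 0.797), with CD47 (r = 0.742, rho = 0.755) and with THBS4 (r = 0.71, rho = 0.636), each with a permutation p of 0.0116 for r after adjustment over 4 relations, and with THBS3 at r = 0.537 (adjusted permutation p = 0.0742). For THBS1, singled out for its group differences, which enter r over all 12 pigs, the p of 0.0116 is a description. Within groups r was 0.745 for THBS1, 0.722 for CD47 and 0.646 for THBS4, and without the 2 pigs farthest from the median range it was 0.772, 0.619 and 0.465. Such relations were common on these arrays, where the median r with the interquartile range was 0.402 over the 5834 named genes above the median level and 14.3% of them reached that of THBS1. With the interquartile range as a covariate, THBS1 differed by -0.52 between basal and placebo, by -0.77 between primed and placebo and by -0.24 between primed and basal. CD47 then differed by -0.083 between basal and placebo (unadjusted p = 0.814) and by 0.49 between primed and basal (unadjusted p = 0.165). The part of the array's spread in the differences of these genes was not tested.

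**Figure D3:**
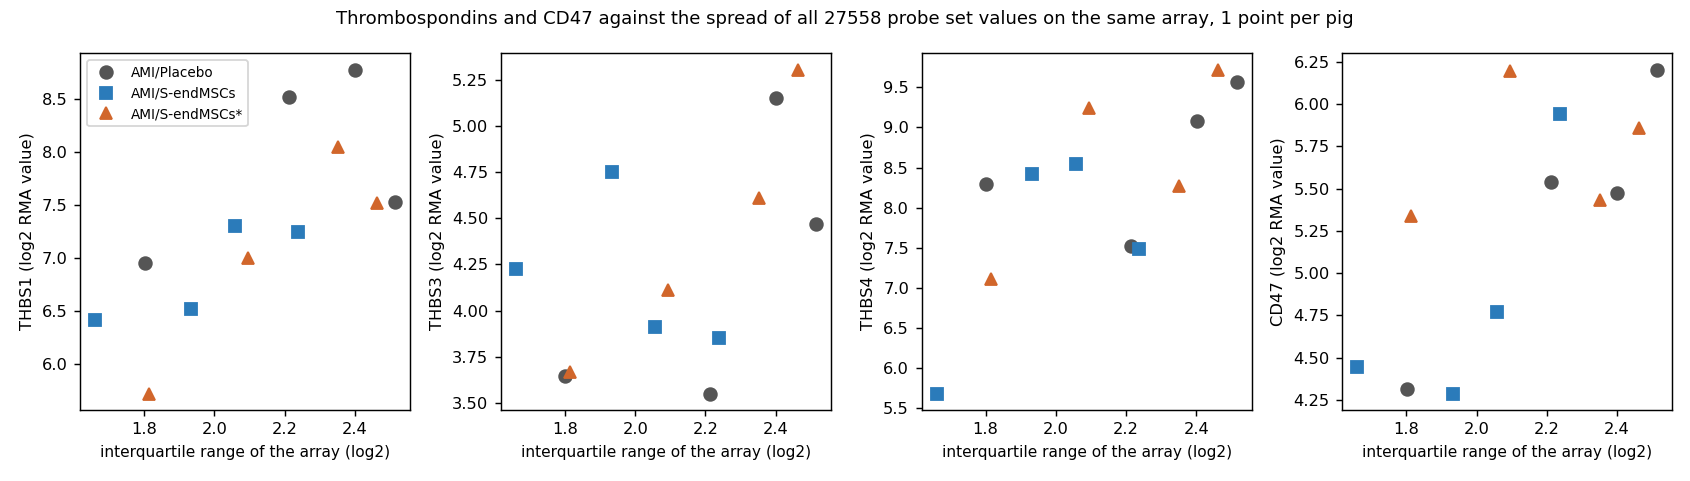
THBS1, THBS3, THBS4 and CD47 values (log2) of 12 pigs against the interquartile range (log2) of all probe set values on the same array, 1 point per pig, marked by group. THBS1, THBS4 and CD47 tend to be higher on arrays with a wider spread (r = 0.742, 0.71 and 0.742).

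The markers of the cells that could supply these transcripts were then set beside them, as the mean log2 difference of a list from its genes' own means in each pig, with 40 relations computed for 4 genes and 10 lists. THBS1 moved with the fibroblast and scar matrix markers, of which 16 of 18 were named. Over 12 pigs r was 0.789 and rho 0.755, with a permutation p of 0.0356 for r after adjustment over the 40. THBS1 was singled out for its group differences, which enter r over all 12 pigs, and the list was chosen with earlier results known. The p of 0.0356 is therefore a description and no test. Among the 5834 named genes above the median level, 5.79% had an r at or above that of THBS1, and the median r was 0.34. Within groups r was 0.788, whose exact permutation p of 0.00658 became 0.0878 on adjustment. AMI/S-endMSCs* replicate 4 and AMI/S-endMSCs replicate 1 had the lowest marker levels, -1.47 and -1.09, and the lowest THBS1 values of all 12 pigs. Without those 2 pigs r was 0.571 (permutation p = 0.087), and with the interquartile range removed from both sides it was 0.44.

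The fibroblast and scar matrix markers ranged from -0.35 to 0.66 in AMI/Placebo, from -1.09 to 0.57 in AMI/S-endMSCs and from -1.47 to 0.55 in AMI/S-endMSCs*. CTHRC1, a matrix protein of activated fibroblasts, was the only one of the 16 called, as lower in each treated group against placebo. Of all named genes, 1.83% and 1.28% were lower in the basal-placebo and primed-placebo comparisons. The list was chosen with earlier results of these data known, so the call of CTHRC1 is a description. With the fibroblast and scar matrix markers as a covariate the THBS1 differences from placebo were -0.71 for the basal and -0.47 for the primed secretome. Their part in the differences of THBS1 was not tested.

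The macrophage and platelet markers gave lower r with THBS1 over the 12 pigs than the fibroblast markers, but not with the interquartile range removed. For the macrophage and monocyte markers, 11 of 16 named, r was 0.67 over 12 pigs (adjusted permutation p = 0.135), 0.713 within groups and 0.661 with the interquartile range removed. These markers ranged from -0.14 to 0.42 in AMI/Placebo, from -0.16 to 0.34 in AMI/S-endMSCs and from -0.75 to 0.15 in AMI/S-endMSCs*. Of the 11, AIF1, C1QB, TYROBP and APOE were down-regulated in the primed group against placebo, where 1.28% of all named genes were lower. This list too was chosen with earlier results of these data known, so these calls are a description. For the platelet and megakaryocyte markers r with THBS1 was 0.391, or 0.579 with the interquartile range removed, and only 4 of the 11 named had a mean above the median of the array. For the smooth muscle and pericyte markers r with THBS1 was 0.659 (adjusted permutation p = 0.135), and 0.186 with the interquartile range removed. With them as a covariate the THBS1 differences from placebo were -0.63 for the basal and -0.53 for the primed secretome. Endothelial markers had r = 0.0737, or -0.111 with the interquartile range removed. Cardiomyocyte markers ran the other way, at r = -0.275. The part of macrophages, platelets and smooth muscle in the THBS1 values was not tested.

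THBS4 moved with the smooth muscle and pericyte markers, of which 9 of 13 were named. Over 12 pigs r was 0.807 and rho 0.755 (adjusted permutation p for r 0.0356), and within groups r was 0.839, with an exact permutation p of 0.00398 that became 0.0796 on adjustment. Without the 2 pigs farthest from the median r was 0.664, and with the interquartile range removed it was 0.573. Among the 5834 named genes above the median level, 0.977% had an r at or above that of THBS4. AMI/S-endMSCs replicate 1 was lowest in both, with markers at -0.51. The 9 genes did not all move together: 3 had a negative difference in primed against placebo, and 3 in primed against basal. ACTA2 and TAGLN were called lower against placebo and ACTA2 against basal, where 1.28% and 2.47% of all named genes were lower. DES was on this list and on the cardiomyocyte list.

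THBS4 had r = 0.652 over 12 pigs with the cardiomyocyte markers (0.612 within groups), and r = 0.798 with the interquartile range removed, so that the order of these and the smooth muscle markers turned. On its second probe set r was 0.797 with the cardiomyocyte markers and 0.399 with the smooth muscle markers. The rise of the cardiomyocyte markers in the primed against the basal group stands beside the THBS4 difference of 1.05 in that comparison, which was -0.02 with those markers as a covariate. With the smooth muscle markers as a covariate the basal-placebo difference of THBS4 was -0.13. Whether cardiomyocyte or mural cell content accounts for the THBS4 values was not tested.

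CD47 ran against the T and NK cell markers, all 13 of which were named and 7 of which had a mean above the median of the array (r = -0.704, adjusted permutation p = 0.135, and r = -0.717 within groups with an exact permutation p of 0.00318, adjusted 0.0796). Those markers differed little between groups and ranged from -0.19 to 0.24 in AMI/Placebo, from -0.13 to 0.18 in AMI/S-endMSCs and from -0.32 to 0.34 in AMI/S-endMSCs*. This relation of CD47 passed the adjusted threshold neither over all pigs nor within groups. Without the 2 pigs farthest from the median r was -0.858, and with the interquartile range removed it was -0.675. Among the 5834 named genes above the median level, 2.19% had an r at or below that of CD47. With the mesothelial and epicardial markers, of which 8 of 11 were named and 2 had a mean above the median, CD47 had r = -0.631 (adjusted permutation p = 0.149), -0.703 within groups and -0.484 without the 2 farthest pigs. THBS3 passed the adjusted threshold with none of the 10 lists, its highest r being 0.517 with the smooth muscle and pericyte markers.

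**Figure D4:**
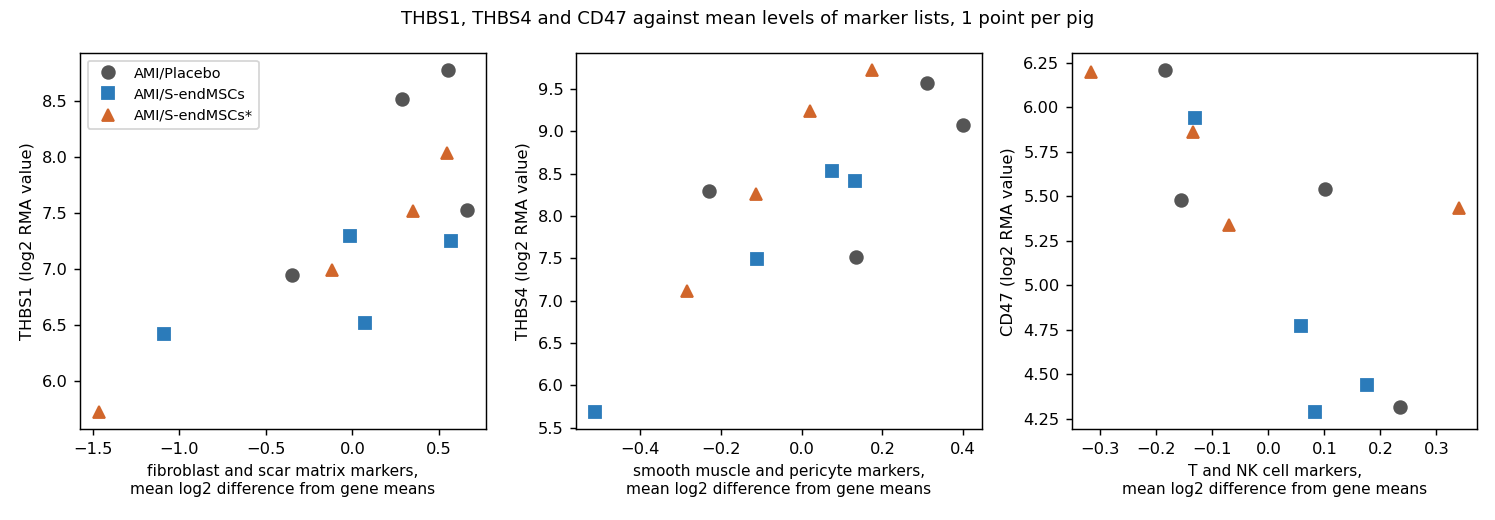
THBS1 against fibroblast and scar matrix markers, THBS4 against smooth muscle and pericyte markers and CD47 against T and NK cell markers in 12 pigs. The vertical axis is the log2 expression value and the horizontal axis the mean log2 difference of the list from its genes' means. The r is 0.789, 0.807 and -0.704, and that of CD47 did not pass after adjustment (permutation p = 0.135).

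The genes whose values over the 12 arrays were most like those of each gene were ranked by Pearson r among 5833 named genes above the median level, as a description with no test. For THBS1 they were FKBP10, an endoplasmic reticulum chaperone of collagen (r = 0.952, 0.94 within groups), BUB3 (r = 0.94), MYADM (0.936) and RAD54L2 (0.936), and the most opposed was WNT11, a Wnt ligand (r = -0.874). FKBP10 had means of 5.34, 4.39 and 4.52 in the placebo, basal and primed groups. It was picked by its r with THBS1 over the same arrays, so a like order of group means comes with the choice. For THBS3 the nearest were TSC2, the tuberin that restrains mTORC1, and COG1, a Golgi tethering subunit (r = 0.873 each). For THBS4 they were FOXN3, a forkhead transcription factor (0.925), and TYK2, a Janus kinase, and FGD6 (0.907 each), and for CD47 they were CCDC91 (0.981), LOC100157453 (0.964) and ZFAND6 (0.951).

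The partners of these proteins were described from 9 lists holding 109 named genes. In the basal-placebo comparison 1 was up-regulated and 2 were down-regulated (2.75% of the 109), in the primed-placebo comparison 3 were up-regulated (2.75%), and in the primed-basal comparison 7 were up-regulated (6.42%). These shares were below those of all named genes given above, and no adjusted p was under 0.05. The median log2 difference of the 109 was -0.11, -0.02 and 0.10. All 13 calls were lost in at least 1 alternative setting, and 12 of the 13 on leaving out some pig.

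COMP, the remaining pentamer of the family, had means of 4.39 ± 0.635, 3.84 ± 0.398 and 4.44 ± 0.573 in the placebo, basal and primed groups (SD, n = 4 each). Its values ran from 3.87 to 5.18 in AMI/Placebo, from 3.31 to 4.18 in AMI/S-endMSCs and from 3.80 to 5.11 in AMI/S-endMSCs*, with overlap throughout. The log2 difference of -0.56 for basal against placebo (unadjusted p = 0.141), of 0.05 for primed against placebo (unadjusted p = 0.892) and of 0.60 for primed against basal (unadjusted p = 0.111) did not pass the threshold. A dimmer second COMP probe set had means of 2.41, 2.50 and 3.02 in the placebo, basal and primed groups, so that placebo was lowest there. SIRPA, the counter-receptor of CD47 on myeloid cells, had means of 4.71 ± 0.602, 4.39 ± 0.245 and 4.22 ± 1.13 (SD, n = 4 each). Its basal-placebo, primed-placebo and primed-basal differences of -0.32, -0.50 and -0.18 had unadjusted limma p of 0.503, 0.301 and 0.705.

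Of the other thrombospondin receptors, 20 of 24 were named. Against basal secretome, 4 of the 20 were up-regulated with the primed secretome, in a comparison where 4.81% of all named genes were higher. CD36, the scavenger receptor that binds the type 1 repeats of THBS1 and also takes up fatty acids in cardiomyocytes, read 4.98, 5.74, 5.72 and 6.50 in AMI/S-endMSCs and 7.60, 5.53, 7.35 and 7.84 in AMI/S-endMSCs*. Of the primed pigs 3 were above all basal pigs and replicate 2 lay among them. The log2 difference was 1.34 ± 0.49 (SE, unadjusted p = 0.0168, adjusted 0.6), and with the cardiomyocyte markers as a covariate it was 0.20 (unadjusted p = 0.549). AMI/S-endMSCs* replicate 2, with the low CD36 value, was also the primed pig with the lowest cardiomyocyte markers, -1.17. Whether cardiomyocyte content accounts for the CD36 difference was not tested. The call was lost without AMI/S-endMSCs replicate 1 or AMI/S-endMSCs* replicate 1 or 4 (1.09 to 1.17, unadjusted p from 0.0503 to 0.0578).

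CACNA2D1, the calcium channel subunit that binds thrombospondins in neurons and that cardiomyocytes express, differed by 2.07 ± 0.68 (SE, unadjusted p = 0.00906). ITGAV, the integrin αv chain that binds the RGD site of thrombospondin-1, differed by 0.86 ± 0.37 (SE, unadjusted p = 0.0359), and SDC4, a heparan sulphate proteoglycan, by 0.67 ± 0.27 (SE, unadjusted p = 0.0249). With the cardiomyocyte markers as a covariate CACNA2D1 differed by 1.05 (unadjusted p = 0.17) and ITGAV by 0.69 (unadjusted p = 0.163). The part of cardiomyocyte content in these differences was not tested. Without AMI/S-endMSCs replicate 1 CACNA2D1 differed by 1.19 (unadjusted p = 0.0108) and ITGAV by 0.50 (unadjusted p = 0.135). ITGAV was also lost without AMI/S-endMSCs replicate 4 or AMI/S-endMSCs* replicate 1, 2 or 3, and SDC4 without replicate 4 of either group. In the other comparisons the calls were GP1BA, a platelet receptor that is also in the platelet list, higher in basal than placebo by 0.56 (unadjusted p = 0.0485), and ITGA3, an integrin chain, higher in primed than placebo by 0.67 (unadjusted p = 0.0402). Their group means lay between 1.44 and 2.90, around or below the median of the array, and leaving out placebo pig 1, 2 or 3 or basal pig 1 or 2 ended the call of GP1BA, and leaving out any pig compared but placebo pig 1 and primed pig 4 that of ITGA3.

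Of 12 symbols listed for nitric oxide and VEGF signalling, whose activity CD47 is known to restrain, 8 were named. Some of the 12 are old and new symbols of the same gene. Array values give their transcript levels and not that activity. GUCY1B3, the β subunit of the guanylate cyclase that senses nitric oxide, was lower in AMI/S-endMSCs than in AMI/Placebo (4.53 ± 0.836 against 5.47 ± 0.434, SD, n = 4, difference -0.93, unadjusted p = 0.0258). KDR, the main VEGF receptor of endothelium, was lower in the same comparison (4.25 ± 0.697 against 5.004 ± 0.312, difference -0.76, unadjusted p = 0.0308). FLT1, the other VEGF-A receptor, was higher in primed than basal by 0.95 (unadjusted p = 0.0172). With the interquartile range as a covariate the GUCY1B3 difference was -0.50 (unadjusted p = 0.0965) and that of KDR -0.56 (unadjusted p = 0.0994). Leaving out placebo pig 1 or basal pig 1 or 2 also ended both calls, and leaving out placebo pig 2 that of GUCY1B3. Without AMI/S-endMSCs replicate 1 GUCY1B3 differed by -0.61 and FLT1 by 0.58 (unadjusted p = 0.0966 and unadjusted p = 0.0569), and FLT1 was lost too without AMI/S-endMSCs* replicate 3.

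For latent TGF-β activation and its targets 20 symbols were listed, with CCN2 and CTGF as symbols of the same gene, and 14 were named. Among these 14, SMAD7, the inhibitory SMAD, was the only call, higher in primed than basal by 0.62 (unadjusted p = 0.0174), and none was called against placebo. Of 33 of 52 other proteins with type 1 repeats, THSD7A (0.79, unadjusted p = 0.0264) and UNC5A (0.51, unadjusted p = 0.0438) were higher in primed than placebo, and PAPLN in primed than basal (0.49, unadjusted p = 0.0486). SMAD7 was lost without AMI/S-endMSCs replicate 3 (0.53, unadjusted p = 0.053), and THSD7A, UNC5A and PAPLN without any of 4, 6 and 6 of the 8 pigs compared. No gene was called in any comparison among 13 genes of the ATF6 arm of the unfolded protein response, through which THBS4 acts in mouse heart, 12 matricellular proteins and 11 proteases and partners that handle thrombospondins.

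**Figure D5:**
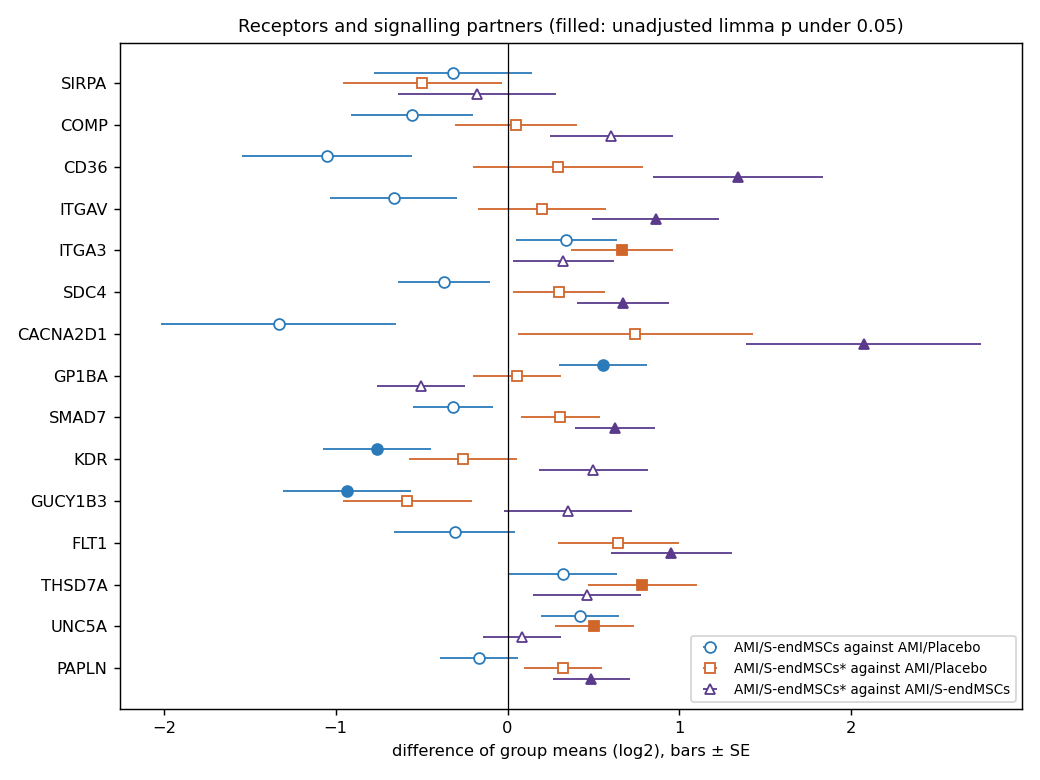
Differences of group means (log2) ± SE for SIRPA, COMP and the 13 partner genes called in 1 of the 3 comparisons, with filled symbols where the unadjusted limma p is under 0.05. Of the 13 calls, 7 lie in the primed-basal comparison, all of them up-regulated, and the bars of CACNA2D1 are the widest.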

How the data were processed

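The authors hybridised RNA of 12 pigs to GeneChip Porcine Gene 1.1 ST arrays and deposited background-corrected, normalised log2 values made with RMA (oligo); software versions and genome build are not given in the sources used here. The 12 arrays limit the precision. The limma p-values set a group difference against the spread between pigs of a group, with 1 array per pig. Probe sets were named from the platform table: 11982 carried 1 symbol, 373 several, which were not named, and 15203 were not in it. Of several probe sets of a gene, that with the highest mean was used. limma (version 3.58.1 in R 4.3.3) fitted 1 mean per group over all 27558 probe sets, calling at an unadjusted p under 0.05, which is the methods' threshold, with Benjamini-Hochberg adjustment and 95% intervals from the same fit. Group differences of 3 genes were also tested by exact two-sided permutation. Relations over pigs used 100000 permutations, or all 13824 permutations within groups. Code was tested on simulated data. Partner genes were named where called in a comparison, besides SIRPA and COMP. Genes and lists were chosen with earlier results of these data known. Alternatives covered centring, quantile normalisation, a filter on dim probe sets, the variance prior, array weights, the samples fitted, a replicate block, left-out pigs and, chosen after seeing the data, covariates for fibroblast and smooth muscle markers and the interquartile range. Deviations of same-numbered pigs of 2 groups from their group means had r from -0.184 to 0.397, without a steady pattern over the comparisons. Numbers were not used to pair pigs, and a fit with the number as a block is given below.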

Additional observations from a re-analysis of the deposited data

Results flagged for a closer look

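Among 60 groups of 4 pigs, 3 held a pig far from the other 3, and chance gives about 1 such group in 20. On the second THBS4 probe set AMI/Placebo replicate 3 was lowest at 5.04, where the other placebo pigs read 6.61 to 6.80. ITGA3 in AMI/S-endMSCs replicate 2 was 3.0, where the others read 2.40 to 2.46. THSD7A in AMI/S-endMSCs replicate 3 was 4.16, where the others read 3.59 to 3.65.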

How the results depend on the processing

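THBS1 was lower in both treated groups than in placebo in every setting run, from -1.29 to -0.52 for basal and from -1.09 to -0.47 for primed, and from -1.40 to -0.80 and from -1.21 to -0.43 with 1 pig left out. Its primed-basal difference ran from -0.24 with the interquartile range to 0.74 with the cardiomyocyte covariate, and from -0.13 (without AMI/S-endMSCs* replicate 2) to 0.65 (without its replicate 4). The basal-placebo difference of THBS3 turned positive with quantile normalisation (0.18) and with cardiomyocyte (0.036), fibroblast (0.16), smooth muscle (0.37) or interquartile range (0.31) covariates, and its primed-basal difference was -0.026 with the last. The primed-placebo difference of THBS4 turned positive with quantile normalisation (0.021), array weights (0.16), fibroblast (0.48), smooth muscle (0.72) or interquartile range (0.10) covariates, the mean of its probe sets (0.33) and the second probe set (0.68), and was -0.67 (unadjusted p = 0.288) with the cardiomyocyte covariate. Its primed-basal difference was -0.017 with the cardiomyocyte covariate and 1.12 (unadjusted p = 0.0485) with the fibroblast one. CD47 passed the threshold in that comparison with array weights (0.94, unadjusted p = 0.0228), only the compared groups (0.85, unadjusted p = 0.0445) and the fibroblast covariate (0.88, unadjusted p = 0.0313), so that 1, 1 and 2 of the 3 tested genes were called. It was 0.79 (unadjusted p = 0.16) with the cardiomyocyte and 0.49 (unadjusted p = 0.165) with the interquartile range covariate. The cause was not tested.

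With the replicate number as a block, CD47 differed by 0.85 between primed and basal (unadjusted p = 0.0354), and 1 of the 3 genes was called. The block left probe set calls within 1.5 times. Pigs share only a number, and 2, 1 and 0 of 4 correlated best with their own number.

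With 1 pig left out, THBS3 ranged from -0.24 to 0.29 (basal-placebo), -0.074 to 0.54 (primed-placebo) and -0.053 to 0.49 (primed-basal), THBS4 from -0.41 to 0.46 (primed-placebo) and 0.44 to 1.54 (primed-basal), and CD47 from -0.89 to -0.25, -0.034 to 0.60 and 0.66 to 1.21. Between 0 and 1 of the 3 genes were then called. SIRPA ranged from -0.54 to 0.23 (primed-basal) and COMP from -0.17 to 0.31 (primed-placebo). SIRPA was 0.021, 0.11 and 0.23 for basal-placebo with fibroblast, smooth muscle and interquartile range covariates and 0.29 for primed-basal with the cardiomyocyte one. COMP was 0.083 on its other probe set (basal-placebo) and -0.10 with the cardiomyocyte covariate (primed-placebo).

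THBS1 with THBS3 had r = -0.126 and THBS3 with CD47 r = -0.043 without the 2 farthest pigs, and THBS3 with THBS4 r = 0.599 (permutation p = 0.0383) on centred arrays. Of the 109 partner genes 2 to 9, 1 to 11 and 1 to 14 were called in the 3 comparisons over the alternatives, and 5 in primed-placebo with the block. No partner call changed direction. With the cardiomyocyte covariate 10 of the 13 were lost. Calls over all probe sets were 620, 517 and 1200 with the filter on dim probe sets, 2621 and 2251 against placebo with array weights, 1700 and 1420 for primed-placebo with smooth muscle and interquartile range covariates, and 865 for primed-basal with the cardiomyocyte covariate.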
